A study of Rattus norvegicus with 9 samples.

Results

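The genes described here mark or steer the endothelium, the cell layer that lines blood and lymph vessels. They are a list of 49 rat genes, of which 47 were found by symbol among the 17465 genes of the table and 45 had a mean of at least 1 CPM (counts per 1000000 of the scaled library total) over the 9 libraries. These 45 are called the endothelial genes below. Ephb4 and Mmrn1 were not matched to a row. Just under the limit lay Bmx (mean 0.632 CPM) and Car4 (0.444 CPM), and the member nearest above it was Angpt1 (2.84 CPM).

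The RNA came from lungs of fetal Sprague-Dawley rats and was sequenced after depletion of ribosomal RNA. The 9 libraries fell into 3 groups of 3, namely control lungs without treatment, hypoplastic lungs without treatment, and hypoplastic lungs given extracellular vesicles of amniotic fluid stem cells (AFSC-EV). The hypoplasia, an underdevelopment of the lung, followed oligohydramnios, a shortage of amniotic fluid. The sources used here do not give fetal age, sex, litter, vesicle dose or time of treatment, nor do they say that each library is a separate animal. The p-values therefore set group differences against the spread between these libraries, which may not be the spread between animals. Because the lungs were ground to powder, fewer endothelial cells and less RNA per endothelial cell cannot be told apart.

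Vessels of the lung grow together with its airways. Vegfa, made largely by epithelium, acts on the receptor Kdr of endothelial cells, while Flt1 binds the same ligand and limits its action. The angiopoietins act on the receptor Tek and govern how vessels mature, and Vegfc acts on Flt4 to drive lymphatic growth. Transcription factors of the ETS, SOXF, KLF and GATA families hold the endothelial state. Oligohydramnios models are studied because small lungs often have too few vessels and a raised vascular resistance after birth.

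Library totals ran from 56922779 to 88243188 estimated counts. Control library 2 and hypoplastic library 2 lay at the ends of the first principal component of all genes, which held 33.4% of the variance. Fold changes of several single genes that rest on them are also given without them, while sums and marker lists are not. Epithelial markers fixed as a list were present in all libraries, with summed levels of 3745 to 5525 CPM in control, 2900 to 3359 CPM in hypoplastic and 3461 to 3807 CPM in treated lungs. Heart muscle markers (8 of 10 tested) summed to 27.4 to 53.2 CPM in control and 28.9 to 38.4 CPM in treated libraries, and to 287, 141 and 24.9 CPM in hypoplastic libraries 1, 2 and 3. Of these sums Ryr2 alone made up 22.5, 40.15 and 23.1 CPM in control and 21.8, 27.75 and 27.2 CPM in treated libraries. In hypoplastic libraries 1, 2 and 3 Ryr2 made up 31.0, 19.4 and 20.9 CPM. Leukocyte markers (10 of 10 tested) summed to 252 to 407 CPM in control, 334 to 598 CPM in hypoplastic and 378 to 523 CPM in treated lungs. Most of these sums was Lyz2, at 216 to 312 CPM in control, 198 to 332 CPM in hypoplastic and 270 to 299 CPM in treated libraries. Platelet markers, of which 4 of 9 were tested, summed to at most 11.4 CPM in any library, with Ppbp at or near 0. The part of these other cells in the values below was not tested.

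The general endothelial genes overlapped in level between the 3 groups. Summed over 12 genes they stood at 1250.0, 996 and 1313 CPM in the control libraries, 1243, 1253 and 1056 CPM in the hypoplastic libraries and 1011, 1209 and 1268 CPM in the treated libraries. The ranges of the 3 groups overlapped almost wholly, as the plot of summed levels shows. Summed over all 45 genes the means were 3686 CPM ± 414 (SD, n = 3) in control, 3642 CPM ± 247 (SD, n = 3) in hypoplastic and 3581 CPM ± 366 (SD, n = 3) in treated lungs.

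**Figure D1:**
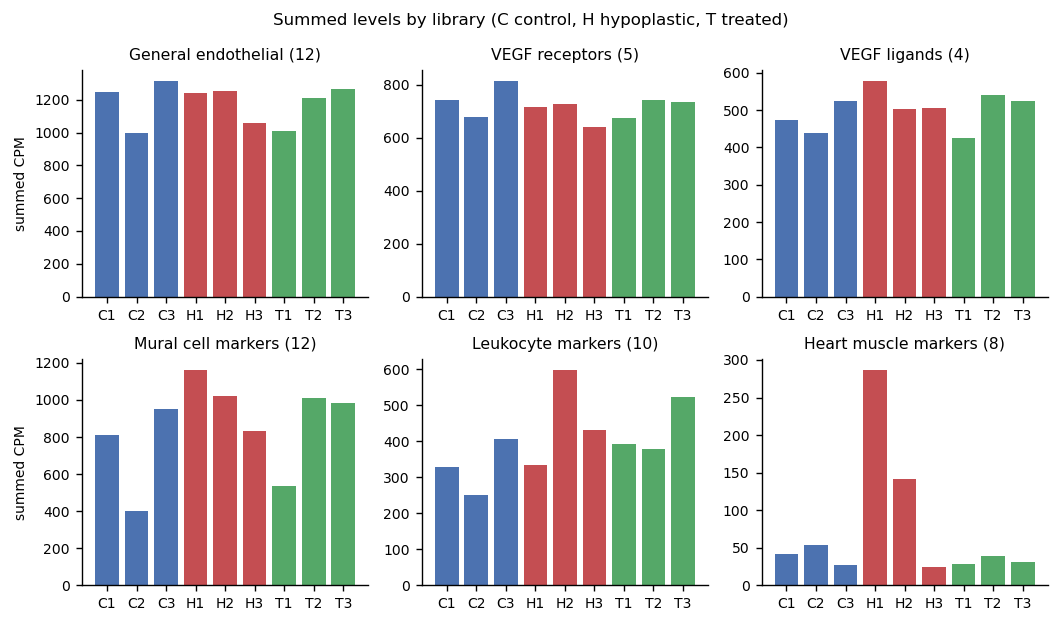
Summed CPM (y axis) in each library (x axis; C control, H hypoplastic, T treated, with the replicate number) of 3 groups of endothelial genes in the upper row and of 3 marker lists of other cells in the lower row, with the number of genes in brackets. The endothelial sums overlap between the groups, mural cell markers are lowest in control library 2 (401 CPM), and heart muscle markers are highest in hypoplastic library 1 (287 CPM).

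In hypoplastic against control lungs edgeR called 0 of the 45 endothelial genes at an adjusted p under 0.05, against 0.00771% of all 12966 genes tested, and limma voom called 0. DESeq2 called 1, Nrp1, against 1.56% of all genes. An unadjusted p under 0.05 was found for 7 endothelial genes (15.6%), 3 higher (Vegfc, Edn1 and Prox1) and 4 lower (Nrp1, Ptprb, Robo4 and Gja5). The share over all genes was 12.4%, with 6.67% higher and 5.69% lower, so the endothelial share was near the background. For 7 endothelial genes (15.6%) the hypoplastic and control libraries were fully separate, 3 higher (Apln, Edn1 and Prox1) and 4 lower (Nrp1, Ptprb, Robo4 and Egfl7). Over all genes this held for 16.7%, with 7.68% higher and 9.05% lower. Of the 45 log2 fold changes 19 (42.2%, against 51.9% of all genes) were above 0, and their median was -0.046, beside 0.013 over all genes tested. That unadjusted p held for 3 endothelial genes without control library 1, for 2 without control library 2, for 4 without hypoplastic library 2 and for 3 without control library 2 and hypoplastic library 2 together. Nrp1 and Prox1 kept that p whichever single library was left out, and without both control library 2 and hypoplastic library 2 Nrp1 and Gja5 kept it and Prox1 did not.

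**Figure D2:**
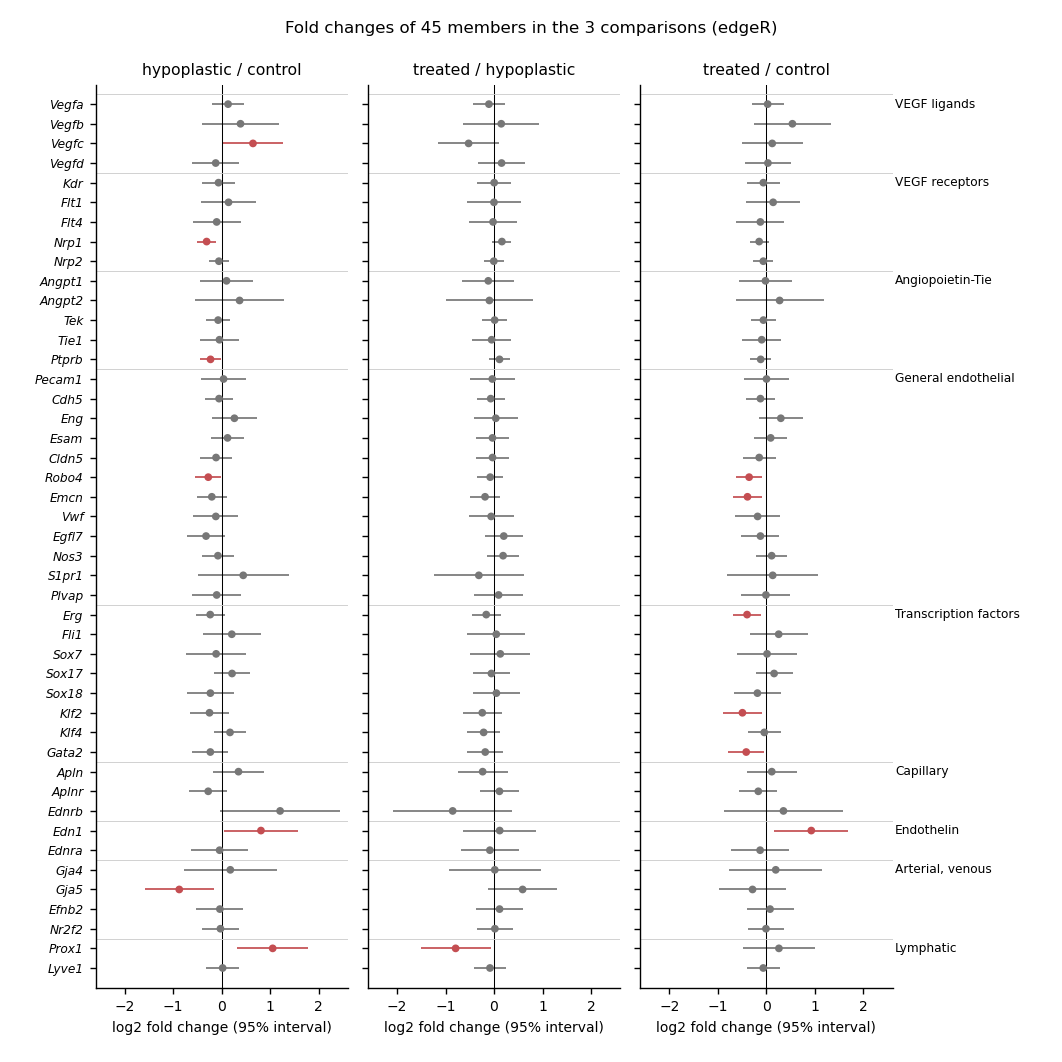
Log2 fold change (x axis, points) with its 95% interval (lines) of the 45 endothelial genes (rows, ordered by role) in each of the 3 comparisons (panels), from edgeR. Red marks an unadjusted p under 0.05, which 7, 1 and 6 genes had, and no gene passed an adjusted p of 0.05.

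Among the VEGF ligands the growth factor Vegfa was at 437, 402 and 478 CPM in control, 535, 466 and 442 CPM in hypoplastic and 358, 502 and 481 CPM in treated lungs. All 3 groups overlapped. Hypoplastic over control gave a log2 fold change of 0.13 with a 95% interval of -0.20 to 0.46 (edgeR adjusted p 0.747). Vegfc, the lymphatic growth factor, was at 4.17, 3.35 and 4.26 CPM in control, 8.68, 5.60 and 4.13 CPM in hypoplastic and 3.44, 4.17 and 5.23 CPM in treated lungs. Hypoplastic library 1 was the highest and hypoplastic library 3 lay within the controls. In hypoplastic against control lungs the log2 fold change of Vegfc was 0.64 (SE 0.281, edgeR adjusted p 0.398), and 0.31 without hypoplastic library 1. Vegfb and Vegfd, the remaining ligands, overlapped between all groups, with Vegfb between 20.4 and 49.8 CPM and Vegfd between 9.54 and 15.6 CPM.

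The principal VEGF receptor Kdr was at 188, 155 and 209 CPM in control, 199.6, 179.7 and 148 CPM in hypoplastic and 153, 198 and 178 CPM in treated lungs. The libraries of all groups overlapped, and the log2 fold change of Kdr in hypoplastic against control was -0.066 with a 95% interval of -0.41 to 0.28 (edgeR adjusted p 0.889). Flt1, the decoy receptor, was at 130.0, 88.9 and 164 CPM in control, 148, 164 and 111 CPM in hypoplastic and 102, 159 and 160.3 CPM in treated lungs. Control library 2 was the lowest of the 9. Flt1 had a log2 fold change of 0.14 with an interval of -0.42 to 0.70 (edgeR adjusted p 0.853), and of -0.064 without control library 2. Flt4, the receptor of Vegfc, ranged from 15.8 CPM in hypoplastic library 3 to 29.2 CPM in hypoplastic library 2.

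The clearest separation among the receptors was that of Nrp1, a coreceptor that binds VEGF and semaphorins on endothelial and stromal cells. It was at 242, 248 and 246 CPM in control, 201, 187 and 205 CPM in hypoplastic and 235, 214 and 214 CPM in treated lungs. Every hypoplastic library was below every control library, and the treated libraries lay between the 2 groups without overlap with either. Hypoplastic lungs had 0.806 of the control level, a log2 change of -0.31 (SE 0.0868, edgeR adjusted p 0.317). Over the alternatives the adjusted p ran from 0.0384, which DESeq2 gave, to 0.857 without control library 2 and hypoplastic library 2 together. With 1 library left out the highest edgeR adjusted p was 0.762. In treated against hypoplastic lungs the log2 fold change of Nrp1 was 0.16 (SE 0.0868, edgeR adjusted p 0.901), and in treated against control lungs it was -0.15 (SE 0.0867, edgeR adjusted p 0.998). Its relative Nrp2, a coreceptor of veins and lymphatics, had the narrowest range of the 45 genes, from 146 to 168 CPM.

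**Figure D3:**
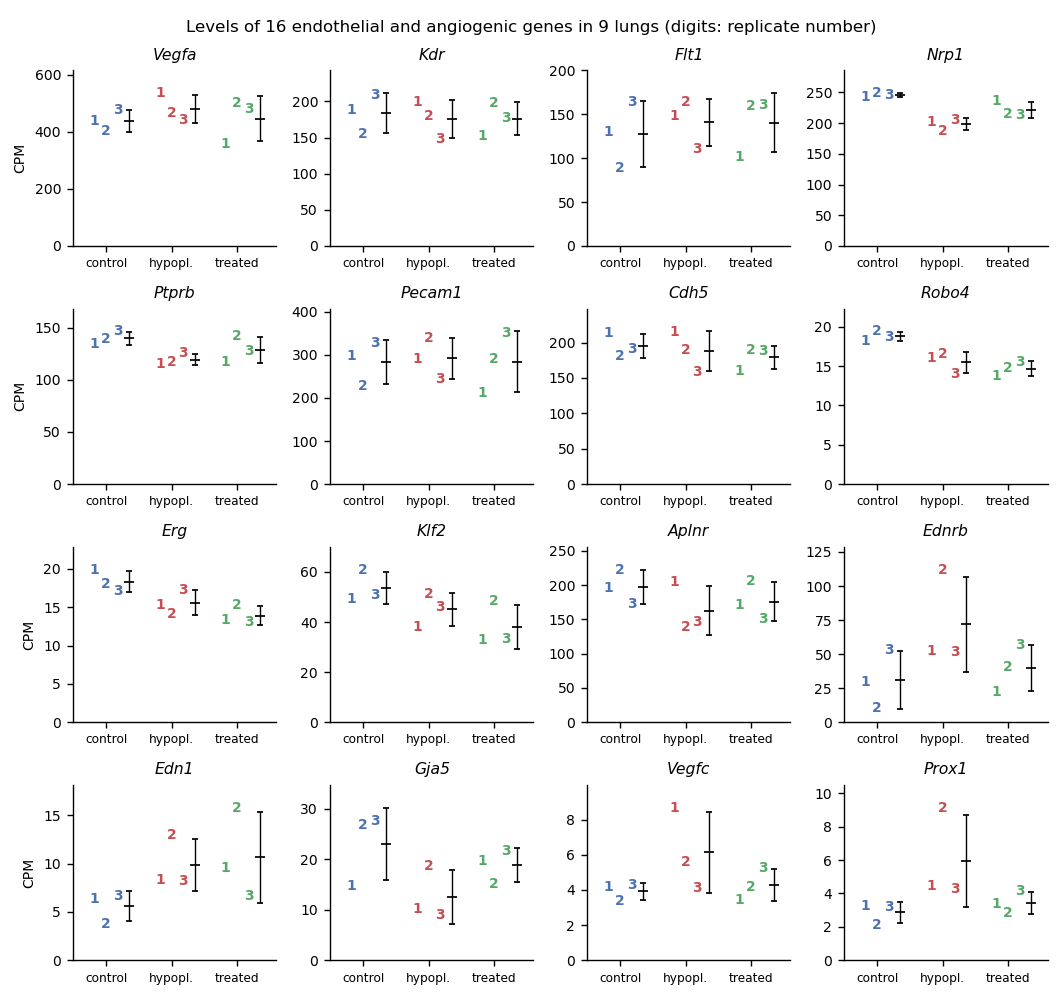
CPM (y axis, from 0) of 16 endothelial genes in each library, drawn as the replicate number of the library and grouped by lung (x axis), with the group mean and SD in black beside each group. The Nrp1 values fall into 3 separate bands (242 to 248, 187 to 205 and 214 to 235 CPM), while Vegfa, Kdr, Flt1, Pecam1 and Cdh5 overlap between all groups.

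In the angiopoietin system the receptor Tek was at 86.2, 82.03 and 80.9 CPM in control, 90.8, 73.2 and 72.7 CPM in hypoplastic and 72.8, 85.3 and 80.5 CPM in treated lungs. Tek overlapped between all groups, with a log2 fold change of -0.074 in hypoplastic against control and an interval of -0.33 to 0.18 (edgeR adjusted p 0.823). The activating ligand Angpt1 was at 2.79, 3.17 and 2.40 CPM in control, 2.58, 2.78 and 3.60 CPM in hypoplastic and 3.27, 2.93 and 2.01 CPM in treated lungs. Angpt2, which mostly opposes Angpt1, was at 4.73, 2.05 and 5.59 CPM in control, 4.76, 7.40 and 3.91 CPM in hypoplastic and 3.15, 5.01 and 6.92 CPM in treated lungs. Both ligands overlapped between the groups, and Angpt2 spread 3.61-fold over the 9 libraries. Ptprb, the vascular endothelial phosphatase that restrains Tek, was at 134, 139.7 and 146 CPM in control, 115, 117 and 126 CPM in hypoplastic and 117, 142 and 128 CPM in treated lungs. The hypoplastic libraries lay below the control libraries without overlap, and the treated libraries overlapped both. The log2 fold change of Ptprb in hypoplastic against control was -0.23 (SE 0.0972, edgeR adjusted p 0.389). Tie1, the partner receptor of Tek, ranged from 152 to 238 CPM over the 9 libraries.

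Of the surface and junction genes, Pecam1 (CD31) was at 298, 227 and 327 CPM in control, 291, 339.6 and 245 CPM in hypoplastic and 212, 289.5 and 352 CPM in treated lungs. Pecam1 had a log2 fold change of 0.038 in hypoplastic against control with an interval of -0.42 to 0.50 (edgeR adjusted p 0.955), and it took the other sign without control library 2 (-0.10) or hypoplastic library 2 (-0.085). Cdh5 (VE-cadherin), the adhesion protein of endothelial junctions, was at 214, 181 and 190.4 CPM in control, 214, 189.8 and 159 CPM in hypoplastic and 159.9, 189 and 188 CPM in treated lungs. Here the log2 fold change was -0.055 with an interval of -0.35 to 0.24 (edgeR adjusted p 0.890). Nos3, the endothelial nitric oxide synthase, was at 36.3, 34.0 and 41.3 CPM in control, 34.4, 41.1 and 30.3 CPM in hypoplastic and 35.2, 40.3 and 44.9 CPM in treated lungs. Nos3 overlapped between all groups, with a log2 fold change of -0.078 and an interval of -0.40 to 0.25 (edgeR adjusted p 0.861). Over the 45 genes the interval lay within 2-fold either way for 36 (80%) and within 1.5-fold for 20 (44.4%), against 74.6% and 48.8% of all genes.

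Vwf, the clotting factor stored in endothelial granules, was at 102, 75.9 and 87.97 CPM in control, 109, 61.5 and 74.1 CPM in hypoplastic and 83.2, 85.1 and 65.97 CPM in treated lungs, with overlap of all groups. Robo4, a receptor that stabilises the vessel wall, was at 18.2, 19.4 and 18.7 CPM in control, 16.03, 16.5 and 13.9 CPM in hypoplastic and 13.7, 14.8 and 15.5 CPM in treated lungs. All 6 libraries of hypoplastic lungs, treated or not, were below the 3 controls. Robo4 had a log2 change of -0.28 (SE 0.118, edgeR adjusted p 0.390) in hypoplastic against control and of -0.36 (SE 0.118, edgeR adjusted p 0.998) in treated against control lungs. Egfl7, a secreted endothelial factor, was at 75.1, 76.4 and 63.2 CPM in control, 61.7, 48.6 and 61.3 CPM in hypoplastic and 58.2, 84.2 and 54.7 CPM in treated lungs. Its hypoplastic libraries were below all controls, and the log2 fold change was -0.32 (SE 0.175, edgeR adjusted p 0.477), or -0.17 without control library 2 and hypoplastic library 2. The receptor S1pr1 had the widest range of the general endothelial genes, 35.3 CPM in control library 2 to 121 CPM in hypoplastic library 2. The plasmalemmal protein Plvap, Eng (endoglin), Esam and Cldn5 overlapped between all groups.

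The 8 transcription factors had log2 fold changes between -0.25 and 0.21 in hypoplastic against control lungs, 5 of them below 0, and 0 with an unadjusted p under 0.05. Klf2, which flow induces, was at 49.01, 60.96 and 50.99 CPM in control, 37.9, 51.2 and 46.1 CPM in hypoplastic and 32.7, 48.3 and 33.1 CPM in treated lungs. Klf4, its relative, was at 23.4, 22.9 and 25.6 CPM in control, 22.4, 32.9 and 25.7 CPM in hypoplastic and 22.6, 25.4 and 21.8 CPM in treated lungs. Klf2 of the treated lungs lay below all controls, whereas Klf4 overlapped between all groups. The SOXF factors Sox7, Sox17 and Sox18 and the ETS factor Fli1 also overlapped between all groups, with Sox18 between 40.6 and 70.1 CPM and Sox17 between 21.7 and 33.6 CPM.

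The lung is known to have a pair of capillary cell types, a general capillary cell that expresses Aplnr and an aerocyte that expresses Car4, Ednrb and Apln. The apelin receptor Aplnr was at 196, 223 and 173 CPM in control, 204, 138 and 146 CPM in hypoplastic and 171, 206 and 149.8 CPM in treated lungs. Hypoplastic library 1 lay within the controls and the other two below them. Aplnr had a log2 fold change of -0.28 in hypoplastic against control with an interval of -0.67 to 0.12 (edgeR adjusted p 0.538), and it was -0.48 without hypoplastic library 1, -0.17 without hypoplastic library 2, -0.18 without control library 2 and -0.078 without both of the latter. The ligand Apln was at 12.3, 11.8 and 11.8 CPM in control, 12.7, 14.3 and 18.6 CPM in hypoplastic and 16.7, 13.3 and 8.68 CPM in treated lungs. Each hypoplastic value exceeded each control value, and the log2 fold change was 0.35 (SE 0.231, edgeR adjusted p 0.560), or 0.17 without hypoplastic library 3.

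Ednrb, an endothelin receptor of aerocytes and of some stromal cells, had the widest range of the 45 genes, 10.6-fold. It was at 29.7, 10.6 and 53.2 CPM in control, 52.0, 112 and 51.7 CPM in hypoplastic and 22.3, 40.6 and 56.6 CPM in treated lungs. Control library 2 was the lowest and hypoplastic library 2 the highest of all 9. Hypoplastic over control gave a log2 fold change of 1.20 with an interval of -0.03 to 2.44 (edgeR adjusted p 0.410). It was 0.79 without control library 2, 0.73 without hypoplastic library 2, 0.32 without both and 1.83 without control library 3. The carbonic anhydrase Car4, below the limit for membership, was at 0.306, 0.410 and 0.163 CPM in control, 0.137, 2.58 and 0.0543 CPM in hypoplastic and 0.105, 0.179 and 0.0587 CPM in treated lungs, so it was low in 8 libraries and higher in hypoplastic library 2 alone. That library also had the highest sum of leukocyte markers, 598 CPM, of which Lyz2 made up 332 CPM, and the part of these cells was not tested.

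The vasoconstrictor peptide Edn1 was at 6.34, 3.80 and 6.63 CPM in control, 8.34, 12.9 and 8.23 CPM in hypoplastic and 9.52, 15.8 and 6.61 CPM in treated lungs. The hypoplastic libraries were all above the controls, and treated library 3 lay within the controls. For Edn1 the log2 fold change in hypoplastic against control was 0.81 (SE 0.343, edgeR adjusted p 0.390), or 0.35 without control library 2 and hypoplastic library 2. In treated against control lungs it was 0.93 (SE 0.342, edgeR adjusted p 0.998), or 0.53 without treated library 2. Its receptor of smooth muscle, Ednra, ranged from 81.7 CPM in control library 2 to 175 CPM in control library 3 and overlapped between all groups.

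Of the arterial genes, Gja5 (connexin 40) was at 14.7, 26.8 and 27.6 CPM in control, 10.1, 18.6 and 8.92 CPM in hypoplastic and 19.7, 15.2 and 21.8 CPM in treated lungs. The lowest control library lay below hypoplastic library 2, so the groups overlapped in a single pair of libraries. Gja5 had a log2 change of -0.88 (SE 0.316, edgeR adjusted p 0.351) between hypoplastic and control lungs. The treated lungs differed from the hypoplastic by 0.59 on the log2 scale (edgeR adjusted p 0.901), and by 0.99 without hypoplastic library 2. Gja5 is also made in atrial heart muscle. The heart muscle markers summed to 287, 141 and 24.9 CPM in the hypoplastic libraries in which Gja5 was at 10.1, 18.6 and 8.92 CPM. Ryr2 made up 31.0, 19.4 and 20.9 CPM of these sums, and the part of heart muscle in the Gja5 values was not tested. The artery genes Gja4 (connexin 37) and Efnb2, and Nr2f2, a factor of vein identity, overlapped between all groups, with log2 fold changes of -0.038 to 0.18 in hypoplastic against control lungs.

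Prox1, the factor that specifies lymphatic endothelium and is also found in heart muscle, was at 3.25, 2.12 and 3.21 CPM in control, 4.47, 9.13 and 4.25 CPM in hypoplastic and 3.34, 2.85 and 4.14 CPM in treated lungs. Every hypoplastic library was above every control and every treated library. Prox1 had a log2 change of 1.05 (SE 0.327, edgeR adjusted p 0.323) between hypoplastic and control lungs and of -0.79 (SE 0.321, edgeR adjusted p 0.896) between treated and hypoplastic lungs. Without hypoplastic library 2 these were 0.60 and -0.34, and the first was 0.43 without control library 2 as well. The heart muscle markers summed to 287 and 141 CPM in hypoplastic libraries 1 and 2 and to 24.9 CPM in hypoplastic library 3, beside Prox1 levels of 4.47, 9.13 and 4.25 CPM. Ryr2 made up 31.0, 19.4 and 20.9 CPM of these sums, and the part of heart muscle in the Prox1 values was not tested. Lyve1, a receptor of lymphatic vessels that fetal macrophages carry too, was at 70.7, 61.2 and 68.1 CPM in control, 65.8, 82.8 and 54.01 CPM in hypoplastic and 59.1, 70.05 and 61.95 CPM in treated lungs, with overlap of all groups.

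In treated against hypoplastic lungs edgeR called 0 of the 45 endothelial genes and 0 (0%) of all genes, and DESeq2 called 0 endothelial genes against 0.132% of all genes. Prox1, which was lower, was the 1 endothelial gene with an unadjusted p under 0.05 (2.22%), against 5.56% of all genes and 3.56% in that direction. It no longer had that p without treated library 1, treated library 2 or hypoplastic library 2. Treated and hypoplastic libraries were fully separate for 2 genes (4.44%, against 9.81% of all genes), Nrp1, which was higher (5.07% of all genes), and Prox1, which was lower (4.74% of all genes). In all 19 of the 45 were higher (42.2%, against 48.1%). The median log2 fold change was -0.032, beside -0.010 over all genes. The 95% interval lay within 2-fold either way for 40 of the 45 genes (88.9%, against 77.4%) and within 1.5-fold for 26 (57.8%, against 54.2%). This comparison shares the hypoplastic libraries with the preceding one, so they are not independent.

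In treated against control lungs edgeR and DESeq2 called 0 of the 45 endothelial genes, against 0% and 0.108% of all genes. With an unadjusted p under 0.05 stood 6 endothelial genes (13.3%), against 4.17% of all genes. Of these Edn1 was higher (2.22%, against 1.67% of all genes) and Robo4, Emcn, Erg, Klf2 and Gata2 were lower (11.1%, against 2.5%). Since these genes were measured in the same libraries, the difference between these shares was not tested. Treated and control libraries were fully separate for 6 endothelial genes (13.3%, against 9.39% of all genes). All 6 were lower in treated lungs, namely these 5 and Nrp1 (against 5.02% of all genes), and 0 were higher (against 4.37%). In all 20 of the 45 were higher (44.4%, against 50.6%), and the 95% interval lay within 2-fold either way for 39 (86.7%, against 77.6%) and within 1.5-fold for 22 (48.9%, against 55.1%). The control libraries are those of the first comparison, so these counts are not independent of it. That unadjusted p held for 2 endothelial genes without treated library 1 (Edn1 and Erg), 3 without control library 2 (Emcn, Erg and Robo4) and 7 without treated library 2.

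The sialoglycoprotein Emcn was at 36.4, 34.2 and 35.5 CPM in control, 34.8, 30.3 and 26.97 CPM in hypoplastic and 23.6, 31.4 and 25.9 CPM in treated lungs. Treated over control gave a log2 change of -0.39 (SE 0.136, edgeR adjusted p 0.998). Erg, an ETS factor of endothelial identity, was at 19.9, 17.98 and 17.1 CPM in control, 15.3, 14.1 and 17.3 CPM in hypoplastic and 13.3, 15.3 and 13.1 CPM in treated lungs. For Erg this was -0.40 (SE 0.132, edgeR adjusted p 0.998). Gata2 was at 15.7, 20.9 and 18.6 CPM in control, 12.7, 16.2 and 18.04 CPM in hypoplastic and 12.5, 14.6 and 14.3 CPM in treated lungs. Gata2 and Klf2 had log2 fold changes of -0.42 (SE 0.166) and -0.49 (SE 0.178) in treated against control lungs, both with an edgeR adjusted p of 0.998. For Emcn, Erg, Klf2 and Gata2 at least 1 untreated hypoplastic library lay within the control range, while the 3 treated libraries lay below it.

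The start regions of 3 of these genes, Robo4, Emcn and Erg, and of Edn1 are shown because their libraries stood apart from control in treated or hypoplastic lungs. They were chosen after the values were seen. Other genes that stood apart and had a start region to show, such as Nrp1, Gata2, Apln and Egfl7, are not printed. Each is the stretch of 250 bases before the annotated start in RefSeq (build GRCr8), 5′ to 3′ on the gene's strand. Capitals mark matches on either strand to 5 searched motifs. ETS factors are known to bind sites such as CAGGAAG, and another form of that core, CCGGAAG, was searched as well. The GATA site was searched as AGATAA. The site of the AP-1 factors was written TGANTCA, where N is any base. For KLF and SP factors the letters were GGGCGGG. Those printed do not overlap each other. The regions are chr8:45308489-45308738 (plus strand) for Robo4, chr2:228564289-228564538 (plus strand) for Emcn, chr11:48251567-48251816 (minus strand) for Erg and chr17:22666688-22666937 (minus strand) for Edn1.
Robo4: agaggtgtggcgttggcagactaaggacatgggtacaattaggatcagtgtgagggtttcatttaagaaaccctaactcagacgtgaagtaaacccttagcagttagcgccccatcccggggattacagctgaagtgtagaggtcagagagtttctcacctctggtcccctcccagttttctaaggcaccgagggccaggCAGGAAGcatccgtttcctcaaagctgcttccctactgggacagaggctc
Emcn: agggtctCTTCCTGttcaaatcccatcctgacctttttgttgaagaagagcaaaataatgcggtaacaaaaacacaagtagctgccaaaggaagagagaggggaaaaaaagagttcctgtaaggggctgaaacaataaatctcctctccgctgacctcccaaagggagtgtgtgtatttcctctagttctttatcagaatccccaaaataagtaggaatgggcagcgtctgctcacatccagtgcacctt
Erg: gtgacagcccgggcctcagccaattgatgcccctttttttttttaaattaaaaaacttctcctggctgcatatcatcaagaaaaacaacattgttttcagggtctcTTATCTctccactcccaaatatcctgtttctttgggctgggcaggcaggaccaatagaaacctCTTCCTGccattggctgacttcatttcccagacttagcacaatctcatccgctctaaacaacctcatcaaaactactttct
Edn1: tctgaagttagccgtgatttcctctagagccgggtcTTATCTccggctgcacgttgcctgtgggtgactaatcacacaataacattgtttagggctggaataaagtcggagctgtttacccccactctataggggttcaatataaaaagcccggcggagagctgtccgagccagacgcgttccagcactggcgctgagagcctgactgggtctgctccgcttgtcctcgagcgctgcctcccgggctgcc

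The RefSeq table held this window for 29 of the 45 endothelial genes, and Tek, Pecam1, Cdh5 and Klf2 were among those without one. The 27457 windows used for comparison were not limited to genes expressed in these lungs. Differences between the shares below were not tested. The letters CAGGAAG stood in 8 of these 29 windows (27.6%), those of Apln, Ednra, Egfl7, Emcn, Erg, Lyve1, Plvap and Robo4, and in 10.2% of all 27457 windows. They began 50 bases before the start in Robo4, 243 bases before it in Emcn and 81 bases before it in Erg. GGGCGGG stood in 12 of the 29 (41.4%), those of Vegfa, Kdr and Flt1 among them, against 22.5% of all windows. AGATAA stood in 4 (13.8%, against 10%), in Edn1 at 214 and in Erg at 144 bases before the start. CCGGAAG and TGANTCA stood in 0 of the 29, against 7.74% and 6.36% of all windows. Nrp1 and Gata2, whose libraries also stood apart from control, held none of the 5 motifs.

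Many endothelial genes shared the same high or low library within a group. These counts were not made over all genes, so whether they are particular to endothelial genes was not tested. Control library 2 was the lowest control for 30 of the 45 genes, Kdr, Flt1, Pecam1 and Cdh5 among them, and control library 3 was the highest for 28. Hypoplastic library 2 was the highest hypoplastic library for 27 genes, and treated library 1 was the lowest treated library for 27. Mural cell markers, which mark pericytes and smooth muscle of vessels and airways, were also lowest in control library 2 (401 CPM) and treated library 1 (537 CPM), against 811 to 1162 CPM in the other libraries. A different set of 8 genes was highest among controls in control library 2, namely Nrp1, Nrp2, Angpt1, Robo4, Egfl7, Klf2, Gata2 and Aplnr. Red cell markers summed to 12950 CPM in control library 2 and to 3874 to 7769 CPM in the other libraries.

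**Figure D4:**
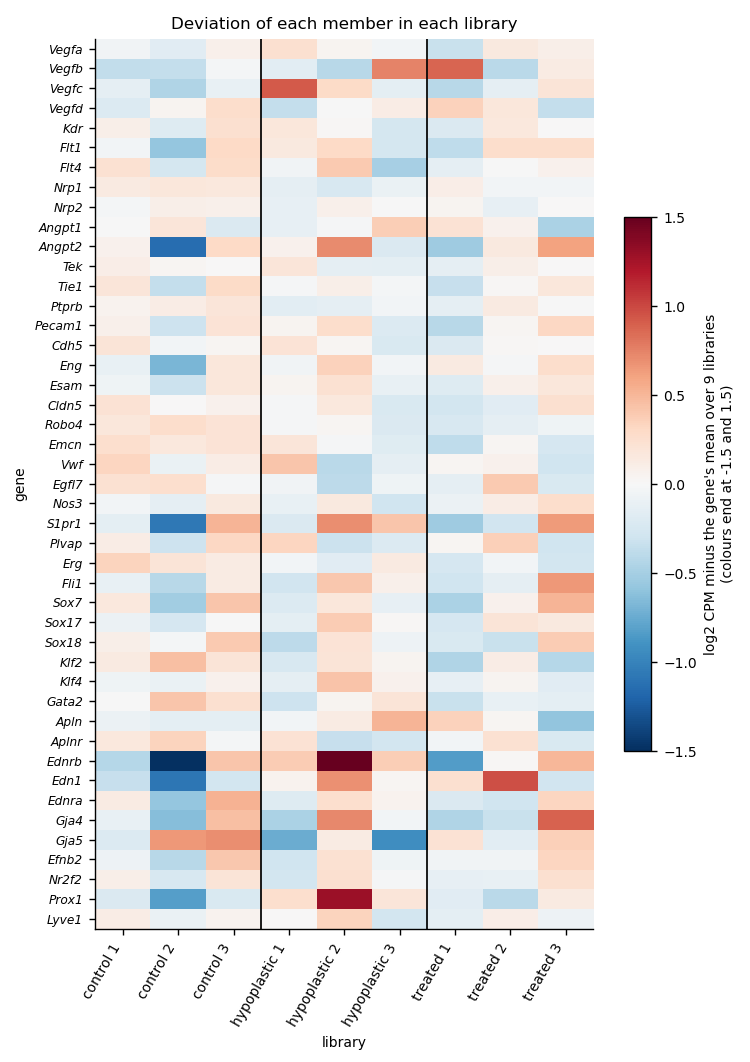
Log2 CPM of each endothelial gene (rows) in each library (columns) minus the mean of that gene over the 9 libraries, in blue below and red above it, with vertical lines between the groups. Control library 2 is the lowest control for 30 genes, and Ednrb and Prox1 are highest in hypoplastic library 2.

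Further genes of the endothelium and of its signals were read from lists. Among 23 tested genes of a second endothelial list (26 listed) 0 were called in hypoplastic against control lungs, 10 were higher and 13 lower, and the median log2 fold change was -0.072. The libraries did not overlap for 7 of these 23, all lower in hypoplastic lungs, beside 9.05% of all genes in that direction. An edgeR unadjusted p under 0.05 was found for only 1 of the 23, beside 12.4% of all genes. The one with the smallest p, Arhgef15, was at 46.9, 47.3 and 45.98 CPM in control, 38.1, 31.1 and 31.1 CPM in hypoplastic and 31.8, 48.6 and 35.8 CPM in treated lungs. The hypoplastic libraries were below all controls, with a log2 change of -0.48 (SE 0.158, edgeR adjusted p 0.325). Myct1, another endothelial gene, followed, and its controls averaged 22.6 CPM ± 4.86 (SD, n = 3) while the hypoplastic lungs averaged 31.7 CPM ± 8.28 (SD, n = 3).

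Of 25 other angiogenic signalling genes 23 were tested, 0 were called, and 17 were higher and 6 lower in hypoplastic lungs, with a median log2 fold change of 0.068. Pgf, a VEGF relative that binds Flt1, was at 3.51, 0.713 and 3.72 CPM in control, 3.51, 16.5 and 6.35 CPM in hypoplastic and 4.52, 2.51 and 7.21 CPM in treated lungs. Hypoplastic library 2 was the highest of all, and the log2 fold change in hypoplastic against control was 1.71 (SE 0.676, edgeR adjusted p 0.369), or 0.87 without hypoplastic library 2 and 0.44 without control library 2 as well. Notch4, an endothelial Notch receptor, averaged 53.0 CPM ± 7.31 (SD, n = 3) over the controls, while the hypoplastic lungs averaged 41.4 CPM ± 4.46 (SD, n = 3).

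Among 10 further genes of endothelin, nitric oxide and prostacyclin signalling edgeR called 0 and DESeq2 called 1, Edn3. This endothelin peptide, which binds Ednrb, was at 23.3, 45.6 and 22.4 CPM in control, 15.5, 14.4 and 12.5 CPM in hypoplastic and 27.7, 20.03 and 15.96 CPM in treated lungs. The hypoplastic libraries lay below all others. Edn3 had a log2 change of -1.10 (SE 0.293, edgeR adjusted p 0.317) between hypoplastic and control lungs, or of -0.69 without control library 2. Its adjusted p ran from 0.0230 with DESeq2 to 0.857 over the alternatives. Ptgis, the prostacyclin synthase, was at 11.6, 7.01 and 10.9 CPM in control, 20.7, 26.03 and 10.99 CPM in hypoplastic and 10.3, 10.9 and 10.5 CPM in treated lungs, and hypoplastic library 3 lay within the controls. The log2 fold change of Ptgis in hypoplastic against control was 0.96 (SE 0.294, edgeR adjusted p 0.323), or 0.49 without control library 2 and hypoplastic library 2.

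Markers of other cells gave the context for these values in hypoplastic against control lungs. Over all genes tested 51.9% of log2 fold changes were above 0. The lists were not summarised without control library 2 or hypoplastic library 2. Of 12 mural markers 11 were higher, with a median log2 fold change of 0.43. They summed to 811, 401 and 950 CPM in the control libraries and to 835 to 1162 CPM in the hypoplastic libraries, so control library 2 weighs on this rise. Desmin (Des) averaged 94.9 CPM ± 53.9 (SD, n = 3) in the controls, with 33.9 CPM in control library 2. In the hypoplastic lungs it averaged 192 CPM ± 42.0 (SD, n = 3), while Cnn1 overlapped between the groups. All 10 leukocyte markers were higher, with a median of 1.12. Their sum was lowest in control library 2 (252 CPM, of which Lyz2 made up 216 CPM) and highest in hypoplastic library 2 (598 CPM, of which Lyz2 made up 332 CPM). The calprotectin genes S100a8 and S100a9 stood at 3.92 and 2.99 CPM in control and at 30.0 and 29.9 CPM in hypoplastic lungs, and DESeq2 called both while edgeR called 0. Of 12 epithelial markers 9 were lower, with a median of -0.29, and DESeq2 called 2, Sftpc and Sftpb. Of 8 red cell markers 8 were lower, with a median of -0.52 and Alas2 and Hbb-b1 of smallest p. The platelet list (Gp1bb and Pf4 of smallest p among those of at least 1 CPM) and the proliferation list (Mki67 and Cdk1) had medians of -0.12 and -0.0048. Of 8 heart muscle markers 7 were higher, with a median of 3.21 and Tnni3 and Myl4 of smallest p. An edgeR unadjusted p under 0.05 was found for 6 of the 8, all higher, beside 6.67% of all genes in that direction. DESeq2 called 1 (Tnni3), and all 8 overlapped between hypoplastic and control libraries.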

How the data were processed

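The authors deposited 1 table of estimated counts (17465 genes by NCBI Gene ID, 9 libraries, fractional values), whose name refers to a feature count. Per the submitters' processing notes the build was rn7 and DESeq2 was used, while the sources used here do not give the aligner or annotation. How fractions arose is not known, so near-identical genes are uncertain. Values were rounded to whole numbers. Symbols came from RefSeq (GRCr8) for 99.1% of IDs, and coordinates are given only for RefSeq promoter windows. Sex was not modelled.

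edgeR 4.0.16 (quasi-likelihood, legacy=FALSE, TMM, filterByExpr, R 4.3.3) was fitted to all 9 libraries with 1 term per group and 6 residual degrees of freedom over 12966 genes, with Benjamini-Hochberg adjustment over all of them and a threshold of 0.05. Standard errors are the change divided by the square root of F, and 95% intervals use edgeR's moderated degrees of freedom. CPM use TMM-scaled library sizes and are not per length, so levels of different genes are not comparable. Alternatives were RLE factors, other filters, DESeq2 1.42.0, limma voom 3.58.1, only the libraries compared, a replicate block and omission of each library. The fit was run on simulated counts with known large folds and the same spread for all genes, which the real genes do not share. How well it finds small changes was not tested. The members and lists were chosen with earlier results of these data known, so lists are described without a test. Library values are given for 19 listed genes fixed by name and for those with an unadjusted p under 0.05 or, where shown, no overlap of libraries.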

Additional observations from a re-analysis of the deposited data

How the results depend on the processing

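No endothelial gene was called by edgeR in any comparison under the other size factors, filters, library choices and omissions, nor by limma voom. DESeq2 called 1, Nrp1, in hypoplastic against control lungs and 0 in the other comparisons. The replicate numbers are not said to pair lungs, and deviations of same-numbered libraries correlated at -0.282 to 0.227 (above 0.1 in 3 of 9 pairs). Those of libraries with different numbers, also from different groups, correlated at -0.439 to 0.389 (above 0.1 in 7 of 18 pairs). With the replicate block 4 endothelial genes of hypoplastic against control lungs had an unadjusted p under 0.05 and 0 in treated against hypoplastic lungs, and no gene was called. With 1 library left out that number ran from 2 to 6 in hypoplastic against control, 0 to 2 in treated against hypoplastic and 2 to 7 in treated against control lungs. Without control library 2 and hypoplastic library 2 together, chosen after the data were seen, it was 3 in hypoplastic against control and 3 in treated against control lungs, and the log2 changes of Flt1 and Pecam1 in hypoplastic against control were -0.19 and -0.22. With 1 library left out, changes near 0 took either sign: Kdr from -0.18 to 0.043, Flt1 from -0.064 to 0.36, Pecam1 from -0.10 to 0.15, Cdh5 from -0.16 to 0.052 and Nos3 from -0.20 to 0.019. Of 544 gene values under alternatives 531 kept their direction and side of the threshold. None of these genes was under the threshold in the main fit, so this count says little about how stable the sizes were. The log2 change of Ednrb in hypoplastic against control lungs, for example, ran from 0.32 to 1.83. The cause of these shifts was not tested. Each group had 3 libraries, which limits the precision, and the effect of depth was not tested.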

Other observations

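Ratios of CPM within a library, which do not depend on the library total, were also formed for 5 pairs of genes. They are given as values, and their differences between groups were not tested. The ratio of Vegfa to Kdr was 2.40 ± 0.170 (SD, n = 3) in control, 2.75 ± 0.209 (SD, n = 3) in hypoplastic and 2.53 ± 0.182 (SD, n = 3) in treated lungs, and hypoplastic library 2 (2.59) lay within the controls. Flt1 to Kdr was 0.684 ± 0.105 (SD, n = 3), 0.800 ± 0.0959 (SD, n = 3) and 0.792 ± 0.118 (SD, n = 3) in the same order. Angpt2 to Angpt1 ranged from 0.646 in control library 2 to 3.44 in treated library 3 and overlapped between the groups. Gja5 to Nr2f2, an arterial over a venous gene, was 0.226, 0.515 and 0.393 in control, 0.200, 0.257 and 0.147 in hypoplastic and 0.349, 0.267 and 0.299 in treated lungs. Its treated libraries lay above the hypoplastic ones without overlap, and control library 1 lay below hypoplastic library 2. Car4 to Aplnr was 0.0187 in hypoplastic library 2 and at most 0.00184 in the other libraries.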
